A study of Homo sapiens with 16 samples.

Results

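The regions described here are the TOP2B CUT&RUN intervals of human chromosome 3 in PC9 cells. They were taken from 4 deposited peak lists as every interval whose chromosome is given as 3, and were counted by midpoint in windows of 5 Mb on GRCh37. The chromosome held 1718 of the 44922 intervals in all 4 lists, with 551 of 15281 in untreated wild-type cells, 387 of 12493 in untreated knockout cells, 598 of 9655 in treated wild-type cells and 182 of 7493 in treated knockout cells. The position of the TOP2B gene itself was included.

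PC9 is an established human lung adenocarcinoma line whose growth depends on a mutant EGFR receptor, and osimertinib is an EGFR inhibitor. The groups were PC9 wild type untreated, PC9 wild type with osimertinib, METTL7A knockout untreated and METTL7A knockout with osimertinib, and METTL7A is a gene of the methyltransferase-like family. Treated cells of both genotypes had grown under rising doses of osimertinib, starting from 100 nM, for 6 to 8 weeks, and the sources used here do not give the final dose. Each group had 2 TOP2B samples and 1 list made from both, the labels do not say whether the knockout is a single clone or whether replicates came from separate cultures, and the genotype was not checked here because no measurement of METTL7A was used.

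TOP2B is the beta isoform of DNA topoisomerase II. It cuts both strands of a DNA duplex, passes another duplex through the break and seals it again, which removes the twists and tangles that build up when DNA is transcribed. It is known to act at promoters, at enhancers and at the bases of chromatin loops, and anticancer drugs such as etoposide trap it on DNA. On chromosome 3, the short arm carries tumour suppressor genes such as VHL, RASSF1 and FHIT and is often lost in lung cancers. The outer long arm carries TERC, PIK3CA, SOX2 and TP63 and is often gained, above all in squamous tumours. Except for TOP2B, intervals were not assigned to genes here.

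The authors name each list as intersected peaks. How the replicates were intersected is not stated in the sources used here, so what 1 interval requires of each replicate is unknown. The maximum beside an interval is that of a called peak, and its position lay outside the interval for 47.9% of the chromosome 3 intervals in untreated wild type, 18.6% and 41.8% in untreated and treated knockout, and 66.7% in treated wild type. With 1 list per group replicate spread could not be measured and groups were not tested. Each share therefore carries an exact Clopper-Pearson 95% interval and each ratio of shares an exact conditional 95% interval, which cover counting error only. Because intervals cluster and are not independent, these ranges are too narrow as a measure of biological error. An empty window means that no peak there reached the list, and its signal need not be zero. The lists do not separate occupancy in few cells from weak occupancy in many.

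Chromosome 3 held the highest share of its list in treated wild type. The share was 3.61% in untreated wild-type cells (95% interval 3.32 to 3.91), 3.10% in untreated knockout cells (2.80 to 3.42), 6.19% in treated wild-type cells (5.72 to 6.69) and 2.43% in treated knockout cells (2.09 to 2.80). The 95% interval of treated wild type does not meet those of the other 3 lists. By number of intervals chromosome 3 ranked 6 among the 24 sequences of the treated wild-type list, 10 in untreated wild type and 11 in both knockout lists. Under osimertinib the wild-type share was 1.72 times that of untreated cells (1.53 to 1.93) and the knockout share 0.784 times (0.654 to 0.938). The knockout share was 0.859 times that of wild type without drug (0.752 to 0.980) and 0.392 times under osimertinib (0.330 to 0.464). These comparisons share lists, so they are not independent of each other. The untreated genotype ratio turned to 1.14 (0.940 to 1.39) when only intervals at or above the median maximum of their list were counted. By number alone, without regard to list length, the treated count was 1.09 times the untreated one in wild type and 0.470 times in the knockout. Each list was also cut by maximum toward the length of the shortest. Intervals tied at the cut were kept, so the cut lists were not of equal length. With these cut lists the ratio of shares was 2.61 in wild type (2.21 to 3.11) and 0.916 in the knockout (0.752 to 1.11). Counting called peaks, the knockout ratio was 0.945 (0.786 to 1.13), so under both settings its 95% interval includes 1. Counting called peaks took treated knockout from 182 to 177 on chromosome 3, but from 7493 to 6023 in the whole list. The treated knockout list is the shortest and was not cut, so its share stayed 2.43%, while the untreated knockout share went from 3.10% to 2.65%.

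Almost every interval lay on the long arm. The short arm, taken as the first 90 Mb, held 34 intervals in untreated wild-type cells, 12 in untreated knockout cells, 30 in treated wild-type cells and 8 in treated knockout cells. That is 6.17% of the chromosome 3 intervals (4.31 to 8.52), 3.10% (1.61 to 5.35), 5.02% (3.41 to 7.08) and 4.4% (1.92 to 8.48) in the same order. The long arm from 95 Mb held 93.8%, 96.9%, 94.3% and 95.6%. The window from 90 to 95 Mb, where the centromere lies, held 4 treated wild-type intervals and 0 in each other list. Of the 40 windows of 5 Mb, 30 held an interval in at least 1 list, 20 held one in all 4 and 10 were empty in every list. Intervals occurred in 22 windows in each untreated list, 29 in the treated wild-type list and 20 in the treated knockout list.

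**Figure D1:**
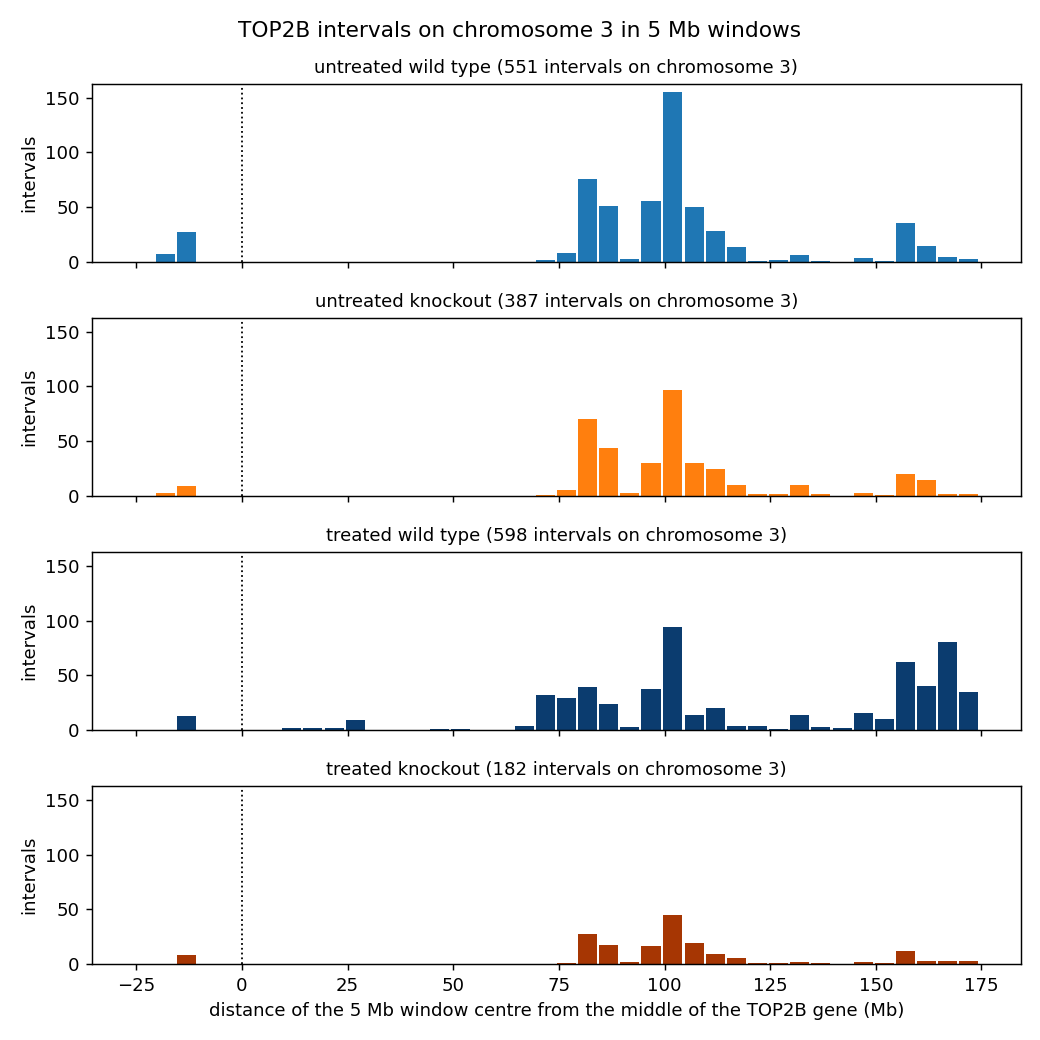
Number of TOP2B intervals on chromosome 3 in each 5 Mb window (vertical axis), against the distance of the window centre from the middle of the TOP2B gene in Mb (horizontal axis), with 1 panel per list. No bar stands at the gene (dotted line); the tallest bar is at the same window in every list (155, 97, 94 and 45 intervals), and the bars at the far right are tall in treated wild type (80 and 35) and at most 5 elsewhere.

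No interval lay in the TOP2B gene in any of the 4 lists. The gene spans 67003 bp, from 25639396 to 25706398, and no interval was found within 100 kb or 1 Mb of it or in the window from 25 to 30 Mb. Toward the end of the short arm, the nearest intervals ended 10.7 Mb away in untreated wild-type cells (at 14979100), 11.2 Mb in untreated knockout cells (at 14415850), 11 Mb in treated wild-type cells (at 14610150) and 12 Mb in treated knockout cells (at 13662100). On the other side the nearest interval was 70.8 Mb away in untreated wild type, 73.8 Mb in untreated knockout and 74.4 Mb in treated knockout, beyond the centromere. In treated wild type it was 13.0 Mb away, at 38672301 to 38673900.

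The gene thus lay in the longest stretch without an interval in each of the 4 lists. That stretch ran from 14979101 to 96474000 in untreated wild type (81.5 Mb), from 14415851 to 99533100 in untreated knockout (85.1 Mb) and from 13662101 to 100119550 in treated knockout (86.5 Mb). In treated wild type it ended earlier, at 38672300, and was 24.1 Mb long. Treated wild type had 17 intervals between 15 and 90 Mb, where the other lists had none. The lower 95% bound of the ratio of the treated to the untreated wild-type share was 6.53. Of these 17 intervals, 9 lay between 50 and 55 Mb, from 50461451 to 52859550, and 2 between 70 and 80 Mb, at 72136001 to 72138050 and 75186951 to 75188400. They were 800 to 2050 bp wide, and the called peaks they came from had maxima of 0.545 to 1.00 times the list median. For 10 of the 17 that maximum lay outside the interval.

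Neighbouring windows were joined into stretches after their counts had been seen, to describe the arms in turn. The outer short arm from 5 to 15 Mb held 34 intervals in untreated wild-type cells, 12 in untreated knockout cells, 13 in treated wild-type cells and 8 in treated knockout cells. Untreated wild type had most, and the knockout share was 0.432 times the wild-type share without drug (0.204 to 0.855). None of the 34 untreated wild-type intervals overlapped 1 of the 12 in the untreated knockout, or 0% (0 to 10.3). The share of untreated wild-type intervals with such an overlap was 19.6% over the whole chromosome and 35.1% over all chromosomes. The untreated knockout held only 12 intervals in this stretch, which limits the overlap.

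Most intervals of both knockout lists and of untreated wild type lay in 2 dense blocks of the long arm. The first, from 105 to 115 Mb, held 127 intervals in untreated wild-type cells, 114 in untreated knockout cells, 63 in treated wild-type cells and 46 in treated knockout cells. Its share of the list was 0.831%, 0.913%, 0.653% and 0.614%, and the 95% intervals of these shares all meet. That does not make the shares equal: in the knockout, the ratio of the treated to the untreated share was 0.673 (0.467 to 0.955). The second, from 120 to 145 Mb, held 303, 192, 170 and 96 intervals, or 1.98% of the list (1.77 to 2.22), 1.54% (1.33 to 1.77), 1.76% (1.51 to 2.04) and 1.28% (1.04 to 1.56). The window between the blocks, from 115 to 120 Mb, held 3, 3, 3 and 2 intervals. The second block alone was 55.0% of the chromosome 3 intervals in untreated wild-type cells, 49.6% in untreated knockout cells and 52.7% in treated knockout cells, but 28.4% in treated wild type.

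The window from 125 to 130 Mb was the fullest in every list, with 155, 97, 94 and 45 intervals. This was 28.1% of the chromosome 3 intervals in untreated wild-type cells, 25.1% in untreated knockout cells, 15.7% in treated wild-type cells and 24.7% in treated knockout cells. Within it, the 1 Mb from 126 to 127 Mb was the fullest single megabase of the chromosome in untreated wild type (54), untreated knockout (33) and treated knockout (18), and second in treated wild type (39). In untreated wild type the intervals from 125 to 130 Mb covered 443 kb. The widest interval of the chromosome in that list, 10350 bp from 126716201 to 126726550, lay there. The next windows in rank were 105 to 110 Mb (76) and 120 to 125 Mb (56) in untreated wild type, 105 to 110 Mb (70) and 110 to 115 Mb (44) in untreated knockout, and 105 to 110 Mb (28) and 130 to 135 Mb (19) in treated knockout. Treated wild type differed, with 190 to 195 Mb (80) and 180 to 185 Mb (62). The 3 fullest windows held 52.1%, 54.5%, 39.5% and 50.5% of the chromosome 3 intervals in untreated wild type, untreated knockout, treated wild type and treated knockout.

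Treated wild type had further dense stretches on either side of these blocks. At the start of the long arm, from 95 to 105 Mb, it held 61 intervals against 10 in untreated wild type, 7 in untreated knockout and 1 in treated knockout. From 170 to 190 Mb the counts were 128 in treated wild type and 56, 39 and 18 in untreated wild type, untreated knockout and treated knockout. From 190 Mb to the end they were 115 in treated wild type and 8, 4 and 6 in the same order. The 1 Mb from 194 to 195 Mb held 55 intervals in treated wild type, its fullest megabase, and 4, 1 and 3 in the other lists. These 3 stretches made up 10.2%, 21.4% and 19.2% of the chromosome 3 intervals of treated wild type. The sparse stretch from 145 to 170 Mb held 10 intervals in untreated wild-type cells, 16 in untreated knockout cells, 24 in treated wild-type cells and 5 in treated knockout cells.

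**Figure D2:**
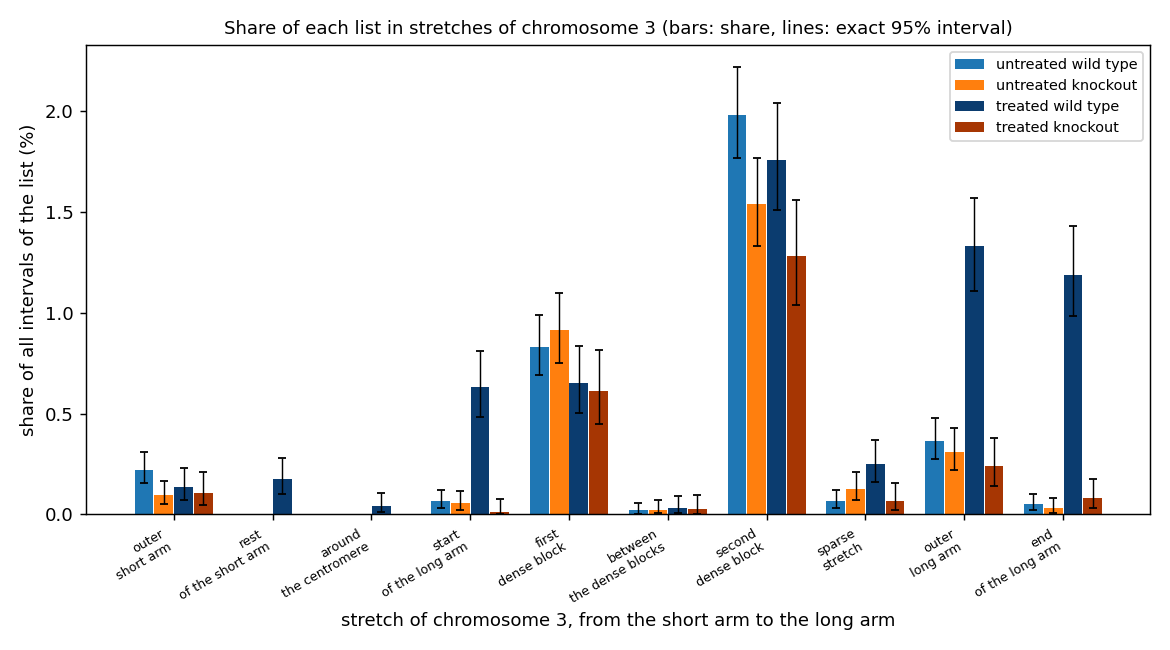
Share of all intervals of a list (vertical axis, in percent) in stretches of chromosome 3 ordered from the short to the long arm (horizontal axis), with 1 bar per list and lines for the exact 95% interval, omitted where the count is 0. The 95% intervals of the lists overlap in the first dense block (shares 0.614 to 0.913%). Treated wild type stands above the other 3 lists at the start of the long arm (0.632%), on the outer long arm (1.33%) and at its end (1.19%).

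The comparison of knockout with wild type without drug asks whether TOP2B lies elsewhere when METTL7A is lost. A window counted as higher or lower when its list shares differed 2-fold or more, with 0.5 added to each count, among windows holding 10 or more intervals in 1 of the lists compared. Of 11 chromosome 3 windows, 0 were higher in the knockout and 1 was lower (9.09%). Over all chromosomes 5.29% of 208 windows were higher and 18.3% lower. Taken as a share of the chromosome 3 intervals in place of the whole list, 1 window was higher and 1 lower. The window with the lower share was 10 to 15 Mb, with 27 wild-type and 9 knockout intervals (ratio 0.408, 0.169 to 0.893). Its direction reversed among intervals at or above the list median maximum, of which wild type held 0 and the knockout 5 (lower 95% limit 0.783). Next lowest were 120 to 125 Mb (56 and 30, ratio 0.655, 0.406 to 1.04) and 180 to 185 Mb (36 and 20, 0.680, 0.373 to 1.21). The highest ratios were 2.04 at 155 to 160 Mb (6 and 10 intervals, 0.671 to 6.82), which was under 2-fold with 0.5 added, 1.22 at 185 to 190 Mb (15 and 15) and 1.13 at 105 to 110 Mb (76 and 70). All but the first of these 6 ratios have a 95% interval that includes 1. Among intervals at or above the list median maximum, 185 to 190 Mb held 1 in wild type and 12 in the knockout (ratio 10.3, 1.52 to 438). By stretch, the knockout share was 1.10 times the wild-type share in the first dense block (0.845 to 1.43) and 0.775 times in the second (0.643 to 0.932).

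The comparison of treated with untreated wild type concerns cells that had grown under the drug. Of 17 chromosome 3 windows, 9 were higher under osimertinib (52.9%) and 2 were lower (11.8%). Over all chromosomes 31.9% of 235 windows were higher and 33.2% lower. The median log2 ratio was 1.44 over the chromosome 3 windows and -0.21 over all windows. The largest differences were at 190 to 195 Mb, with 5 untreated and 80 treated intervals (ratio 25.3, 10.4 to 80.1), at 95 to 100 Mb, with 2 and 32 (25.3, 6.46 to 218), and at 195 Mb to the end, with 3 and 35 (18.5, 5.82 to 93.8). The lowest ratios were 0.443 at 130 to 135 Mb (50 and 14 intervals, 0.226 to 0.814), 0.452 at 140 to 145 Mb (14 and 4, 0.108 to 1.44) and 0.745 at 110 to 115 Mb (51 and 24, 0.438 to 1.23). Among intervals at or above the list median maximum, 140 to 145 Mb held 2 untreated and 0 treated (upper 95% limit 7.45). The fullest window, 125 to 130 Mb, held a like share in both lists (155 and 94 intervals, 0.960, 0.735 to 1.25). By stretch, the treated share was 9.65 times the untreated one at 95 to 105 Mb (4.91 to 21.1), 3.80 times at 145 to 170 Mb (1.75 to 8.90), 3.62 times at 170 to 190 Mb (2.62 to 5.05) and 22.8 times from 190 Mb to the end (11.2 to 54.0). In the dense blocks the ratio was 0.785 (0.571 to 1.07) and 0.888 (0.732 to 1.07). The stretches were drawn from the same counts and add no evidence to the windows, and the second block includes the lower window at 130 to 135 Mb. On raw counts, 8 windows were higher and 4 lower, and on shares of the chromosome 3 intervals 8 and 5.

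In the knockout, 10 windows were examined for osimertinib against no treatment, and 0 were higher and 2 lower (20.0%). Over all chromosomes 4.29% of 163 windows were higher and 19% lower, so the chromosome 3 share of lower windows was near the background. The lower ones were 185 to 190 Mb, with 15 untreated and 3 treated intervals (0.333, 0.0619 to 1.18), and 155 to 160 Mb, with 10 and 2 (0.333, 0.0355 to 1.56). Both 95% intervals include 1, and no window passed with a minimum of 20 intervals or with window edges moved by 2.5 Mb. Next lowest was 135 to 140 Mb (25 and 9, 0.60, 0.247 to 1.33). The highest ratios were near equality, at 1.06 for 130 to 135 Mb (30 and 19 intervals) and 1.00 for both 140 to 145 Mb (10 and 6) and 180 to 185 Mb (20 and 12). Among intervals at or above the list median maximum these ratios were lower. They were 0.676 (20 and 7 intervals, 0.242 to 1.67), 0.552 (7 and 2, 0.0560 to 2.90) and 0.215 (9 and 1, 0.00490 to 1.55) in the same order. By stretch, the treated share was 0.673 times the untreated one in the first dense block (0.467 to 0.955) and 0.834 times in the second (0.646 to 1.07). From 190 Mb to the end, where wild type had the 22.8-fold ratio, the knockout held 4 untreated and 6 treated intervals (2.50, 0.593 to 12), and the difference between the genotypes was not tested. On raw counts, 6 of the 10 windows were lower and 0 higher. The treated knockout list as a whole was 0.60 times as long as the untreated one.

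Under osimertinib, 16 windows were examined for knockout against wild type, and 0 were higher in the knockout and 9 lower (56.2%). Over all chromosomes 26.9% of 193 windows were higher and 48.2% lower. On shares of the chromosome 3 intervals, 4 windows were higher and 7 lower. The lowest ratios were at 95 to 100 Mb, with 32 wild-type and 0 knockout intervals (upper 95% limit 0.157), at 190 to 195 Mb, with 80 and 3 (0.0483, 0.00976 to 0.146), and at 100 to 105 Mb, with 29 and 1 (0.0444, 0.00109 to 0.268). Their order depends on the 0.5 added to each count. The highest were 1.75 at 130 to 135 Mb (14 and 19 intervals, 0.831 to 3.77), 0.966 at 110 to 115 Mb (24 and 18) and 0.925 at 105 to 110 Mb (39 and 28). In the first dense block the knockout share was 0.941 times that of wild type (0.629 to 1.40), and in the second the knockout share was 0.728 times that of wild type (0.561 to 0.940). From 95 to 105 Mb the ratio was 0.0211 (61 and 1 intervals, 0.000526 to 0.122). From 170 Mb to 190 Mb the knockout share was 0.181 times that of wild type (128 and 18 intervals, 0.104 to 0.298), and from 190 Mb to the end 0.0672 times (115 and 6, 0.0242 to 0.151).

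**Figure D3:**
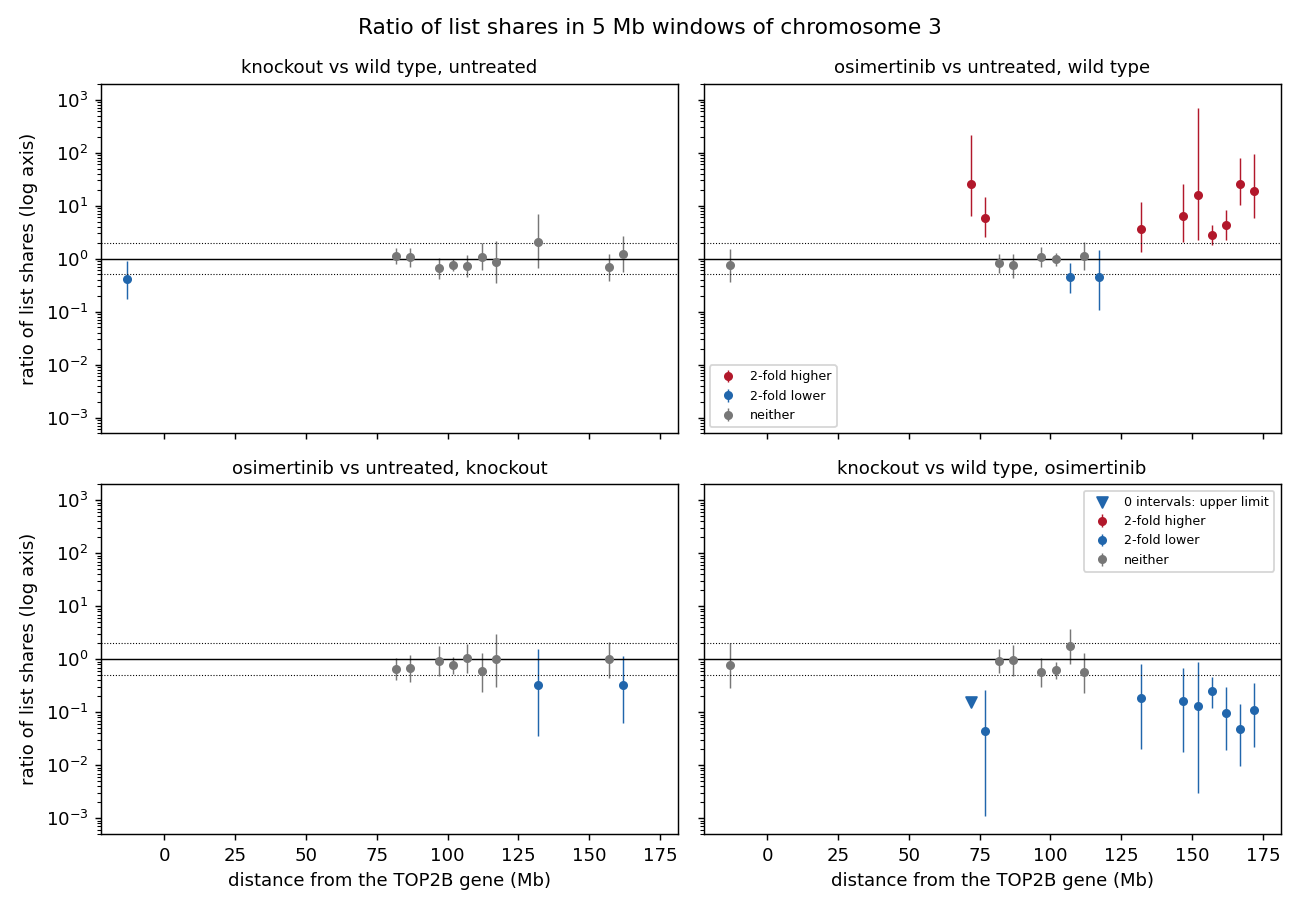
Ratio of list shares in 5 Mb windows of chromosome 3 holding 10 or more intervals in 1 of the lists compared (vertical log axis), against distance from the TOP2B gene in Mb (horizontal axis), with 1 panel per comparison. Points are ratios with exact 95% intervals, the triangle is the upper limit (0.157) of a window with 0 knockout intervals, and dotted lines mark 2-fold. For osimertinib in wild type, 9 red points stand above 2-fold (52.9% of windows, against 31.9% over all chromosomes). For knockout against wild type under osimertinib, 9 windows stand below it (56.2%, against 48.2% over all chromosomes).

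Among the 4 pairs of lists compared, window counts were closest between the untreated lists and between the knockout lists. Pairs that differ in both genotype and treatment were not correlated here, so the closest of all pairs is not known. Over the 30 windows with an interval in at least 1 list, Pearson's r of interval counts was 0.973 and Spearman's rho 0.980 between the untreated lists. They were 0.979 and 0.920 between the knockout lists, 0.668 and 0.707 between the wild-type lists, and 0.651 and 0.728 between the treated lists. These values describe single lists that share the same windows, and windows are not replicates. At the scale of single intervals, 108 of 551 untreated wild-type intervals shared at least 1 bp with an untreated knockout interval, or 19.6% (16.4 to 23.2), against 35.1% over all chromosomes. In the other direction it was 115 of 387, or 29.7% (25.2 to 34.5), against 53.7%. Only 150 kb were common to both lists, 10.7% of the bases of the wild-type intervals and 24.9% of those of the knockout. Wild-type intervals with a counterpart had a median width of 2750 bp and those without one 2350 bp. By stretch, 26.8% of the 127 wild-type intervals in the first dense block had a counterpart (19.3 to 35.4), 20.5% of 303 in the second (16.1 to 25.4) and 10.7% of 56 at 170 to 190 Mb (4.03 to 21.9). The midpoint of a wild-type interval lay a median of 13.4 kb from the nearest knockout midpoint (quartiles 3.34 and 39.6 kb).

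In wild type, 104 of 551 untreated intervals had a treated counterpart, 18.9% (15.7 to 22.4), which is above the 14.8% over all chromosomes. Of the treated intervals, 115 of 598 had an untreated counterpart, 19.2% (16.1 to 22.6), below the 28.7% over all chromosomes. The latter share varied along the chromosome. It was 33.3% of 63 treated intervals at 105 to 115 Mb (22.0 to 46.3) and 38.8% of 170 at 120 to 145 Mb (31.5 to 46.6). It was 4.92% of 61 at 95 to 105 Mb (1.03 to 13.7) and 1.74% of 115 from 190 Mb to the end (0.211 to 6.14). Untreated wild type held only 10 and 8 intervals in these stretches, which limits the overlap. Between 15 and 90 Mb untreated wild type held no interval, so none of the 17 treated intervals there could have a counterpart.

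In the knockout, 26 of 387 untreated intervals had a treated counterpart, 6.72% (4.44 to 9.69), against 23.4% over all chromosomes. Of the treated ones 26 of 182 had an untreated counterpart, 14.3% (9.55 to 20.2), against 43.7%. Thus the knockout lists, whose window counts followed each other closely, had few intervals at the same positions: 19.5 kb were common to both. Between the treated lists, 31 of 598 wild-type intervals had a knockout counterpart, 5.18% (3.55 to 7.28) against 10.5% over all chromosomes. Of the knockout intervals 32 of 182 had a wild-type counterpart, 17.6% (12.3 to 23.9) against 13.4%. The share depends on how dense and how wide the intervals of the other list are. In 6 of the 8 directions the chromosome 3 share lay below that of all chromosomes and its 95% interval did not reach it.

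**Figure D4:**
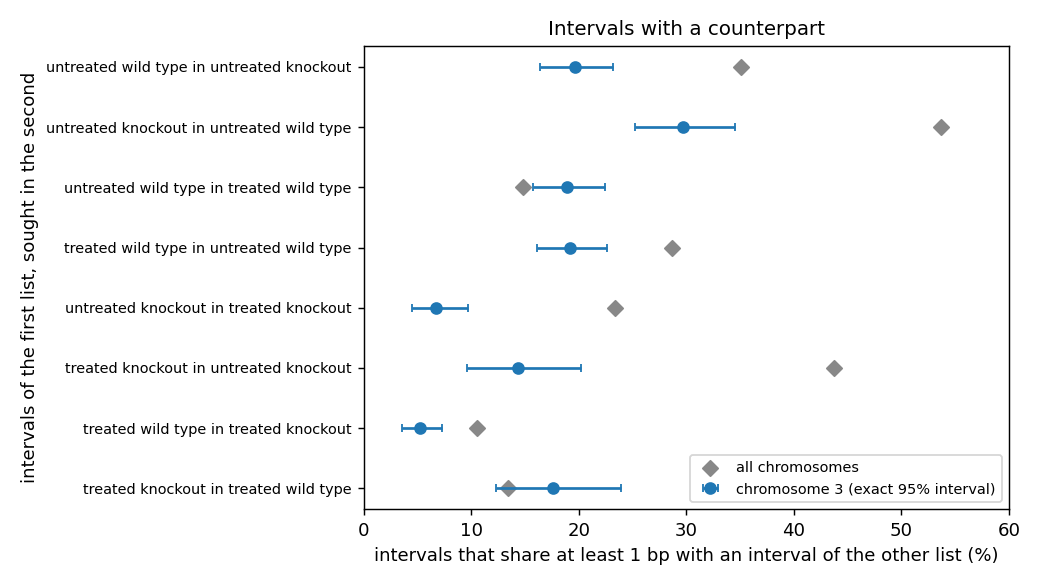
Percentage of intervals of a first list that share at least 1 bp with an interval of a second list (horizontal axis), for the 8 ordered pairs of lists compared (vertical axis). Circles with lines are chromosome 3 with its exact 95% interval and diamonds are all chromosomes; the widest gaps are in the knockout pair (14.3 against 43.7%, 6.72 against 23.4%) and in the untreated pair (29.7 against 53.7%).

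Intervals of the 4 lists that share a base were merged into 1361 regions, of which 1108 (81.4%) were held by 1 list, 188 (13.8%) by 2, 58 (4.26%) by 3 and 7 (0.514%) by all 4. Shares over all chromosomes are not given here, so these values do not set chromosome 3 apart. Of the regions of a single list, 430 belonged to treated wild type, 352 to untreated wild type, 228 to untreated knockout and 98 to treated knockout. The commonest pairs were both wild-type lists (59) and both untreated lists (57), while the knockout lists shared 7 regions with no other list. The commonest triple was both untreated lists with treated wild type (30 regions).

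**Figure D5:**
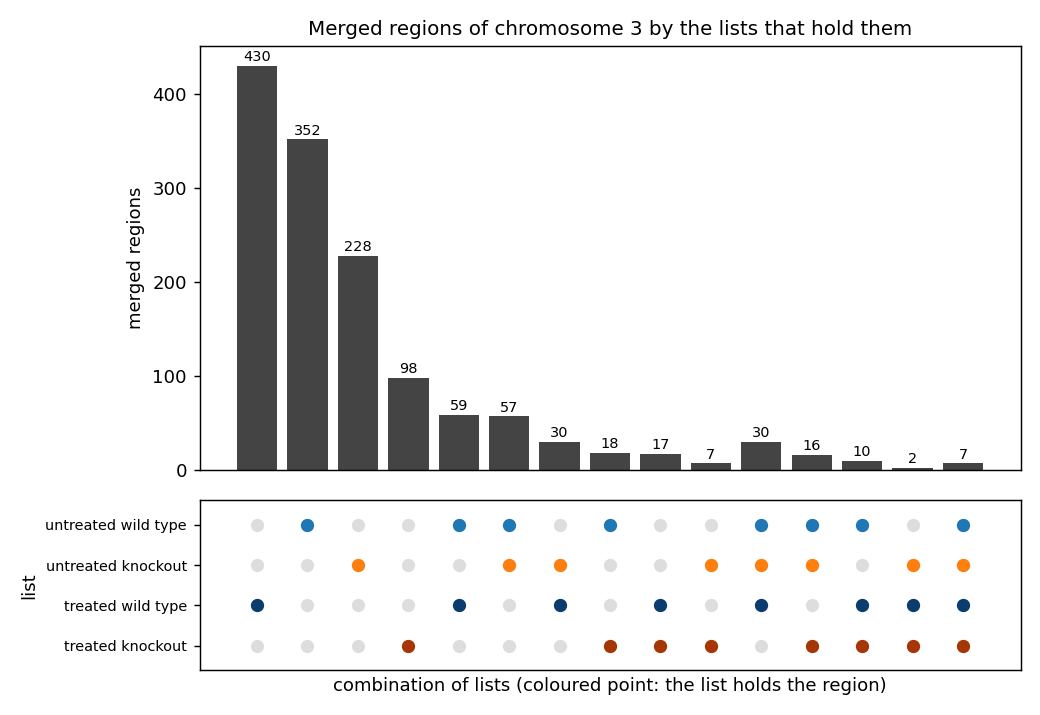
Number of merged chromosome 3 regions (vertical axis) for each combination of lists that holds them (horizontal axis, coloured points below the bars). Regions of a single list are the 4 bars at the left (430, 352, 228 and 98), and 7 regions are held by all 4 lists.

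Of the 7 regions held by every list, 2 lay between 105 and 110 Mb, 4 between 125 and 130 Mb and 1 between 180 and 185 Mb. In 3 of them some bases were common to all 4 lists. The longest common piece was 800 bp, from 107544751 to 107545550, within a region from 107543751 to 107546300. The called peaks there had maxima of 1.00, 1.60, 1.09 and 0.625 times the list median in untreated wild type, untreated knockout, treated wild type and treated knockout. A piece of 700 bp, from 107034951 to 107035650, was common within the region from 107034551 to 107037050, where the maxima were 1.25, 1.40, 1.27 and 0.750 times the list median. The shortest common piece was 100 bp, from 126152901 to 126153000. The other 4 regions (125827051 to 125832950, 126708351 to 126713950, 126727851 to 126732400 and 184068401 to 184076700) chained overlapping intervals with no base common to all lists. Requiring intervals at or above the list median maximum left 0 regions in all 4 lists.

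Chromosome 3 intervals were narrower than the rest of their list in 3 of 4 lists and belonged less often to high called peaks in each. Their median width was 2400 bp in untreated wild-type cells (quartiles 1875 and 3100), 1550 bp in untreated knockout cells (1150 and 1950), 1200 bp in treated wild-type cells (950 and 1450) and 1050 bp in treated knockout cells (750 and 1350). The medians of the other chromosomes were 2600, 1700, 1200 and 1150 bp. Together the intervals covered 1.40, 0.602, 0.714 and 0.185 Mb of chromosome 3. At the end of the long arm, the 8 untreated wild-type intervals had a median width of 1300 bp, below the 2225 to 2450 bp of that list in the stretches with at least 10 intervals.

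The maximum of a called peak is a signal of unstated scaling and was compared within a list only. In untreated wild type 16.2% of the chromosome 3 intervals belonged to called peaks above the list median maximum, against 39.9% of the intervals of other chromosomes. The same shares were 30.7 and 44.9% in untreated knockout, 31.6 and 43.1% in treated wild type, and 19.2 and 47.2% in treated knockout. Maxima take few distinct values, and many intervals equal the median. Chromosome 3 maxima spanned 0.417 to 1.33 times the list median in untreated wild-type cells, 0.60 to 2.0 in untreated knockout cells, 0.545 to 1.73 in treated wild-type cells and 0.50 to 1.62 in treated knockout cells.

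The highest called peaks were named as 3 per list, with ties of the maximum broken by area. In untreated wild type 8 called peaks tied at the lowest maximum named, and in untreated knockout 13, so that those named are a part of 9 and 15 that reached it. In each treated list 3 reached it. All 3 of untreated wild type were in the first dense block, at 111511051 to 111514150 (maximum 1.33 times the list median) and, with 1.25 times, at 111329251 to 111337350 and 110929401 to 110932800. In untreated knockout they were at 138633751 to 138635300 (2.0 times), 139167001 to 139169750 (1.80 times) and 111058551 to 111061150 (1.60 times). In treated wild type all 3 were near the end of the long arm, at 193807101 to 193807650 (1.73 times), 195420601 to 195433350 and 195473101 to 195474900 (both 1.64 times). In treated knockout they were at 160167451 to 160168400 (1.62 times), 129032001 to 129032800 and 138773201 to 138774700 (both 1.5 times). Of these 12 called peaks, 7 overlapped no interval of another list. The share over all called peaks is not given here, so this count does not set the highest peaks apart. Of all merged chromosome 3 regions, 81.4% were held by 1 list. The treated wild-type peak at 195420601 to 195433350 was split into 4 intervals and overlapped intervals of both untreated lists, and the treated knockout peak at 160167451 to 160168400 overlapped untreated knockout and treated wild type.

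Intervals were clustered to different degrees, and many were pieces of 1 called peak. The median gap between neighbouring chromosome 3 intervals was 20.9 kb in untreated wild-type cells, 45.0 kb in untreated knockout cells, 37.4 kb in treated wild-type cells and 88.0 kb in treated knockout cells. A neighbour lay within 10 kb for 53.5%, 39.5%, 43.6% and 15.9% of the intervals in the same order. Pieces of a called peak that gave several intervals made up 35.6% of the untreated wild-type intervals, with up to 7 pieces, and 37.0% of the treated ones, with up to 5. In the knockout lists it was 2.58% untreated and 5.49% treated, with at most 2 pieces. These values are for chromosome 3 and do not stand for whole lists. Over all chromosomes, the 7493 treated knockout intervals came from 6023 called peaks, and the 12493 untreated knockout intervals from 12284. In wild type, 15281 untreated intervals came from 10488 called peaks and 9655 treated ones from 6616. On chromosome 3, at each treatment, the wild-type list had more pieces and more near neighbours than the knockout list. The part of the splitting in the spacing was not tested. Counting each called peak as 1 gave 439, 382, 469 and 177 peaks on chromosome 3 in the 4 lists, and left the same number of windows past 2-fold in each comparison (1, 11, 2 and 9).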

How the data were processed

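CUT&RUN, which releases the DNA around an antibody's target with a nuclease, was applied to 16 samples, 8 with a TOP2B antibody and 8 with a histone H2A antibody; the H2A samples were not analysed here. Per the submitters' processing notes, reads were processed on GRCh37 with SEACR, bedtools 2.30, Bowtie2 2.4.2, Trimmomatic, deepTools 3.5.1, SAMtools 1.16 and FastQC. The authors deposited 1 list of intersected peaks per group, each from 2 replicates, so replicates could not be compared. The lists have no header, and their columns were read from their values. For each called peak the deposited score is its area, the signal summed over its bases, and the deposited signal is its maximum coverage. The scaling, the control, the mode of the caller, duplicate handling and library depth are not stated in the sources used here.

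Intervals were analysed with Python 3.11.15, pandas 2.3.3 and scipy 1.17.1. A counterpart shares at least 1 bp. No test was run, since each group has 1 list. Window, ratio and overlap code was checked on simulated data. Named windows were the 3 fullest of each list and, in each comparison, the 3 highest and 3 lowest ratios among those with at least 10 intervals in either list. Named positions were the 3 highest called peaks and the widest interval of a list, and 5 of the 7 regions in all lists; the other 2 are given as well. The members, windows and rules were chosen with earlier results of these data known. A GRCh37 genome or annotation was not used here, so the gene list planned for chromosome 3 was not run and no sequences are given. The alternatives counted called peaks, summed length, high maxima, other windows, folds, denominators and overlaps.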

Additional observations from a re-analysis of the deposited data

Results flagged for a closer look

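Osimertinib went with opposite differences in the 2 genotypes for the chromosome 3 share of the list: treated over untreated was 1.72 in wild type (598 of 9655 against 551 of 15281 intervals) and 0.784 in the knockout (182 of 7493 against 387 of 12493). Each group has 1 list, so the difference between these ratios was not tested. The knockout ratio was 0.945 by called peaks (0.786 to 1.13) and 0.916 with lists cut by maximum (0.752 to 1.11). These 95% intervals include 1, so its lower direction does not hold beyond counting error under those settings. By number of intervals the ratios were 1.09 in wild type and 0.470 in the knockout.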

How the results depend on the processing

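No paired analysis was possible because each group has 1 list made from both replicates, which also prevented leaving out a replicate. The depth of the libraries, and so its limit on detection, is unknown. The ratio of chromosome 3 shares for untreated knockout against wild type (0.859) was 0.743 by called peaks and 0.702 by number. It turned to 1.14 for intervals at or above the list median maximum. Cutting each list by maximum toward the length of the shortest, with ties kept, gave the same untreated shares (2.32% and 2.65%) and ratio. For the untreated lists that cut is therefore not a separate setting. For osimertinib in wild type (1.72) the ratio of shares was 2.29 with high maxima, 2.61 with the cut lists, 2.05 by summed length and 1.09 by number. For osimertinib in the knockout (0.784) it was 0.945 by called peaks and 0.916 with the cut lists, both with a 95% interval that includes 1. It was 0.566 with high maxima and 0.470 by number. For knockout against wild type under osimertinib (0.392) it was 0.282 with high maxima and 0.304 by number. Leaving out chromosomes 5, 7, 17, 19 and 20 kept these 4 ratios within their 95% intervals, but the upper bound was 1.00 for untreated knockout against wild type and 1.01 for osimertinib in the knockout. Windows past 2-fold in untreated knockout against wild type (1) numbered 2 by share of the chromosome and by summed length, 5 with 1 Mb windows, 3 at 1.5-fold and 0 at 3-fold. In wild type under osimertinib (11) they numbered 7 with at least 20 intervals, and in the knockout (2) 1 by share of the chromosome, 6 by number and 0 with 20 intervals, 1 Mb windows, moved edges or 3-fold. Among named windows, high maxima reversed 10 to 15 Mb in untreated knockout against wild type (0.408), with 0 wild-type and 5 knockout intervals and a lower limit of 0.783, and the cause was not tested. With high maxima, 155 to 160 Mb in the knockout held 7 untreated and 0 treated intervals (upper limit 1.34). An overlap of 50% of both intervals gave counterparts for 8.53% of untreated wild-type intervals in untreated knockout and 5.44% in treated wild type, 1.81% of untreated knockout intervals in treated knockout and 2.84% of treated wild-type intervals in treated knockout. Within 1 kb, 24, 22.5 and 7.53% had one in the first, second and last of these, and with high maxima 2.44% of untreated knockout and 0.664% of treated wild-type intervals did in treated knockout. Merging within 1 kb left 77% of regions in 1 list and 12 in all 4, and high maxima 88.0% and 0. The TOP2B gene held 0 intervals under each flank.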
